A study of Mus musculus with 2 samples.

Results

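The collagen VI chains are 5 of the 32285 genes counted in cells of the mouse knee joint, taken by gene symbol as Col6a1, Col6a2, Col6a3, Col6a5 and Col6a6. The joints came from hindlimbs of mice of both sexes at postnatal day 7, either WT or Col12a1 KO, a line lacking the gene for collagen XII, and were digested with collagenase II at 4 mg/mL for 6 h. Single-cell 3′ libraries of both genotypes were deposited as 1 matrix of 24203 cell barcodes, which end in 1 of 2 suffixes and are called here barcode set 1 and barcode set 2. The labels tie no barcode to a genotype, so WT and KO joints were not compared, and every level below is of the mixture. The sets serve as a check of whether a pattern is seen more than once, not as replicates of a condition, and no p-value could be given.

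Collagen VI is a microfibrillar collagen found around cells in most connective tissues. Its molecule is built from the α1 and α2 chains, encoded by Col6a1 and Col6a2, together with a longer α3 chain encoded by Col6a3. The chains assemble in the cell, and the assembled units form beaded filaments outside it. The α5 and α6 chains, encoded by Col6a5 and Col6a6, resemble α3 and are thought to take its place in some tissues. In cartilage, collagen VI is known for the pericellular matrix around each chondrocyte, and in muscle, mutations of the α1, α2 and α3 genes cause myopathies. The question addressed here is how the chain transcripts are balanced in each cell type of the joint.

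All 5 genes lie on the minus strand in 3 loci of the mouse genome build GRCm38 (mm10), by the GENCODE M21 annotation. Col6a2 (chr10:76595762-76623630) and Col6a1 (chr10:76708792-76726168) are neighbours separated by 85.2 kb. Col6a6 (chr9:105687809-105828160) and Col6a5 (chr9:105856078-105960643) are separated by 27.9 kb, with Col6a4 (chr9:105989454-106096783), the remaining α3-like gene, 28.8 kb further on. No protein-coding gene lies between the members of either group. Col6a3 (chr1:90765923-90843971) stands alone.

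The 125 bases before the annotated start of each gene are printed because neighbouring genes of this family are compared with each other below. The letters are from RefSeq's GRCm38.p6 table, 5′ to 3′ on the gene's strand. Each window ends at the more upstream of the RefSeq and GENCODE starts. The GENCODE start lies 124 bases upstream of RefSeq's for Col6a1 and 75 bases for Col6a6, so bases between the starts were not searched, and of the 2 RefSeq starts of Col6a2 the more upstream was used. Capitals mark matches on either strand to the GC box GGGCGG or the E-box CANNTG.

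Col6a1 (chr10:76726169-76726293, minus strand): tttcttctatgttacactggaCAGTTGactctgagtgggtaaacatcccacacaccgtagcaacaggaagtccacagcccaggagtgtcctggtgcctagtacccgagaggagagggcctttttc

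Col6a2 (chr10:76623631-76623755, minus strand): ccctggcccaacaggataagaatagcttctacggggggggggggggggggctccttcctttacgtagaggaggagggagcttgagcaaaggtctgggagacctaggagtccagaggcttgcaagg

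Col6a3 (chr1:90843972-90844096, minus strand): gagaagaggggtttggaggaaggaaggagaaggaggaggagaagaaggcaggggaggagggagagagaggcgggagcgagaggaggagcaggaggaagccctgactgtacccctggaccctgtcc

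Col6a5 (chr9:105960644-105960768, minus strand): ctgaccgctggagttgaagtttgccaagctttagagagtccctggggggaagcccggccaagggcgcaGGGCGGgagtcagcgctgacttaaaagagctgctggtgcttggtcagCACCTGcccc

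Col6a6 (chr9:105828161-105828285, minus strand): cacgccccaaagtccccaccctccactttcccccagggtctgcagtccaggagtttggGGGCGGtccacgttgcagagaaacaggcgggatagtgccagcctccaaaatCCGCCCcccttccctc

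The GC box matched once before Col6a5 and in 2 places before Col6a6, and these letters were not in the windows of Col6a1, Col6a2 and Col6a3. The window of the neighbour Col6a4, not printed here, also held 2 matches. Among the 32851 promoter windows of this length in the table, 26.9% held a GC box. All of these background windows end at the RefSeq start, whereas those printed for Col6a1 and Col6a6 end further upstream. The E-box, in 41.6% of windows, matched once each before Col6a1 and Col6a5. No window held the AP-1 element TGACTCA (2.43% of windows), the TATA box TATAAA (6.55%) or CCCTCCC (12.9%). The GC content of the 5 windows ran from 52% before Col6a1 to 64% before Col6a6, beside a median of 54.4% over all windows.

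After cells with fewer than 500 genes, fewer than 1000 unique molecular identifiers (UMIs) or over 10% mitochondrial UMIs were removed, 15170 cells remained, 7157 in set 1 with a median of 10959 UMIs and 8013 in set 2 with 9623. They formed 33 clusters, of which 30 took 17 class names from marker genes and 3 stayed unnamed. A doublet caller marked 4 cells and so did not work here, and doublets are likely to remain. Among kept cells, 14 barcode sequences occurred in both sets. Col12a1, the gene targeted in the KO, was detected at 208 CPM (counts per 1000000 UMIs) in chondrocytes, 882 CPM in osteoblasts and 830 CPM in tenocytes. It stood apart between the sets, chondrocytes of set 1 holding 41.8 CPM and those of set 2 416 CPM, and its part in any difference between the sets was not tested. Values below are CPM of the UMIs summed over a class, with exact 95% Poisson intervals where given, and each 3′ molecule is counted once whatever the transcript's length. Intervals cover counting error only.

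Col6a1, Col6a2 and Col6a3 were the abundant chains and were detected at their highest level in the tenocyte or ligament fibroblast class, the cells of tendon and ligament. Col6a1, encoding α1, stood at 1256 CPM there (1201 CPM in set 1, 1292 CPM in set 2). Col6a2, encoding α2, stood at 1041 CPM (1012 and 1060.1 CPM), and Col6a3, encoding α3, at 1151 CPM (1034 and 1228 CPM). Both sets of tenocytes were above both sets of every other class for each of the 3 chains. The summed level of the 3 chains was 3448 CPM in tenocytes, 2259 CPM in fibroblasts, 2137 CPM in chondrocytes, 1972 CPM in osteoblasts and 1552 CPM in the synovial lining. Over all cells, the classes outside the 5 connective tissue classes were lower, at 1473 CPM in pericytes or smooth muscle, 648 CPM in endothelium, 642 CPM in Schwann cells and 283 CPM in muscle progenitors. In set 1, pericytes or smooth muscle, at 1574 CPM, were above the synovial lining, at 1332 CPM. Neutrophil, erythroid and B cells pooled, which are not known to make collagen VI, held 108 CPM (105–111), which is read here as background. This background varied, from 19.5 CPM in cluster 15 (neutrophils) to 526 CPM in cluster 24 (160 erythroid cells), where the fibroblast markers summed to 44.7 and 981 CPM.

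**Figure D1:**
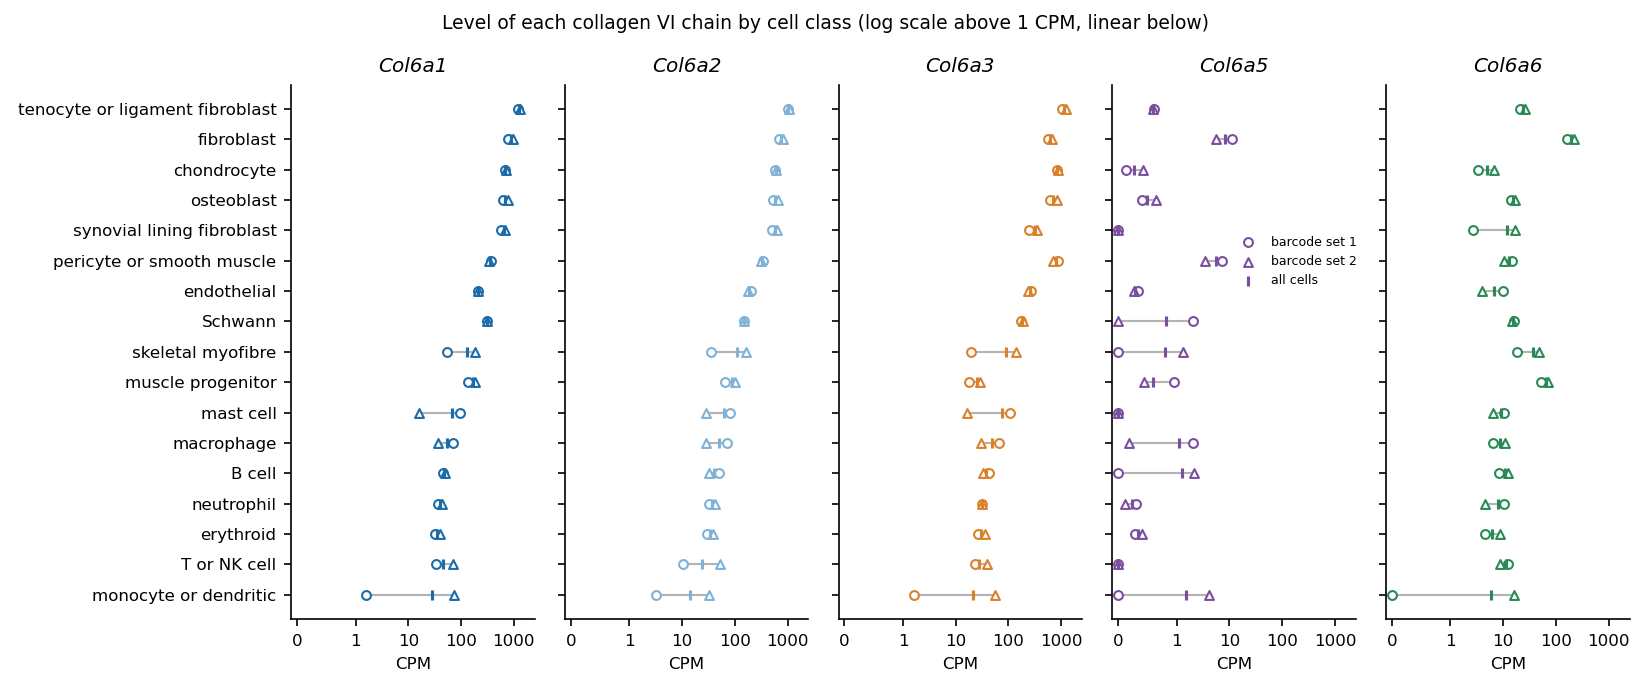
Level of each chain in CPM on a log axis for the 17 classes, 1 panel a chain, with a tick for all cells, a circle for barcode set 1 and a triangle for barcode set 2 (linear scale below 1 CPM). Col6a1, Col6a2 and Col6a3 peak in tenocytes, whereas Col6a6 peaks in fibroblasts at 195 CPM and is next in muscle progenitors at 65.7 CPM.

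Below the tenocytes, the order of classes depended on the chain. For Col6a1, fibroblasts (878 CPM), osteoblasts (695 CPM), chondrocytes (694 CPM) and the synovial lining (647 CPM) followed, and each neighbouring pair among these overlapped between the sets. For Col6a3, chondrocytes came next at 850 CPM (841 and 861 CPM), then pericytes or smooth muscle at 793 CPM (872 and 700.4 CPM), osteoblasts at 698 CPM and fibroblasts at 619 CPM, again with overlapping neighbours. Pericytes or smooth muscle thus came after tenocytes and chondrocytes for Col6a3 and stood at 352 CPM for Col6a1 and 328 CPM for Col6a2, below the 5 connective tissue classes. Of the 16 neighbouring pairs in each chain's order, the sets kept apart 5 for Col6a1, 5 for Col6a2, 5 for Col6a3, 1 for Col6a5 and 3 for Col6a6.

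The share of Col6a3 among the UMIs of the 3 chains differed between several classes by more than it differed between the sets. It was 53.9% in pericytes or smooth muscle (55.4% in set 1, 51.7% in set 2), 39.8% in chondrocytes (39.7% and 39.8%), 27.4% in fibroblasts (27.7% and 27.2%), 20.4% in the synovial lining (18.8% and 21.1%) and 8.86% in muscle progenitors (8.14% and 9.09%). These 5 classes did not overlap each other in any pair of sets. Other classes did: by set, endothelium overlapped chondrocytes, and Schwann cells overlapped fibroblasts. Col6a1 and Col6a2 kept a steadier ratio, between 1.08 in pericytes or smooth muscle and 1.21 in tenocytes across the connective tissue, mural and endothelial classes. Schwann cells and muscle progenitors lay outside that range, at 2.03 and 1.90.

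**Figure D2:**
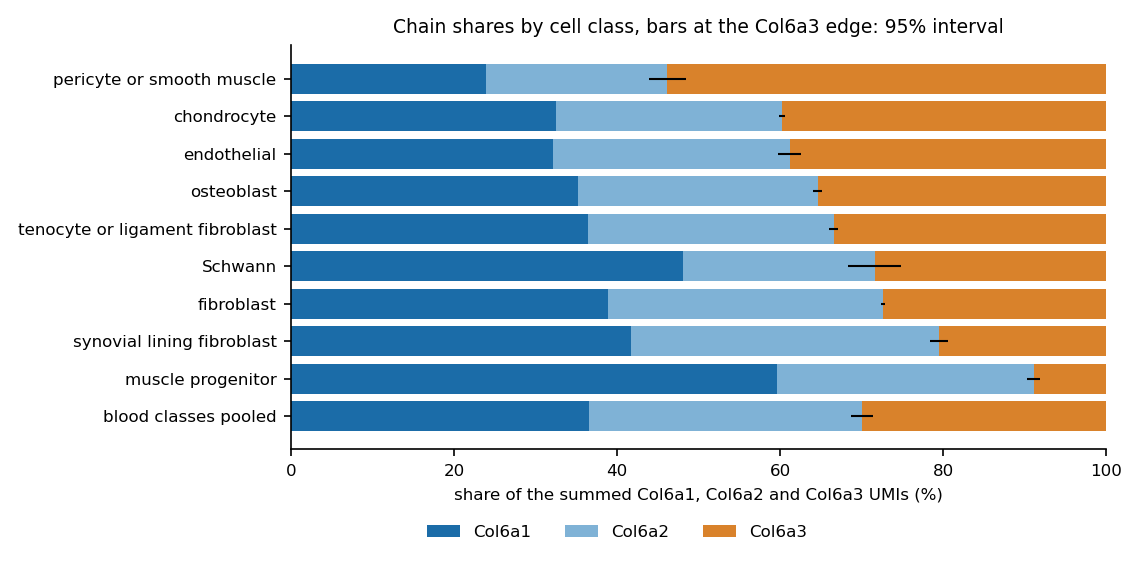
Percent of the summed Col6a1, Col6a2 and Col6a3 UMIs that each chain holds, by class, as stacked bars from 0 to 100%, with the 95% binomial interval of the Col6a3 share as a black line. Col6a3 holds 53.9% in pericytes or smooth muscle and 8.86% in muscle progenitors, whereas the split between Col6a1 and Col6a2 moves less.

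The chain balance is the ratio of Col6a3 to Col6a1 and Col6a2 in a class, divided by that ratio in the connective tissue classes. A connective tissue class was left out of its own reference, so the reference is not the same for all classes. Values such as 1.61 in chondrocytes and 1.38 in endothelium thus have different denominators and are not directly comparable. A class was called when its balance was at least 1.5-fold from 1, its counting interval did not hold 1 and both sets lay on the same side. The balance was higher in pericytes or smooth muscle, at 2.54 (2.32–2.79, 2.64 in set 1 and 2.38 in set 2), and in chondrocytes, at 1.61 (1.58–1.64, 1.60 and 1.62). It was lower in fibroblasts, at 0.660 (0.649–0.671, 0.665 and 0.657), in the synovial lining, at 0.553 (0.517–0.593, 0.486 and 0.588), and in muscle progenitors, at 0.212 (0.192–0.234, 0.188 and 0.223). Osteoblasts at 1.22, tenocytes at 1.10, endothelium at 1.38, Schwann cells at 0.861 and pooled blood cells at 0.928 were not called. The fibroblast and chondrocyte values lie close to the threshold: fibroblasts lost the call under 7 of 15 other settings, with values up to 0.717, and chondrocytes under 2, with values down to 1.49.

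**Figure D3:**
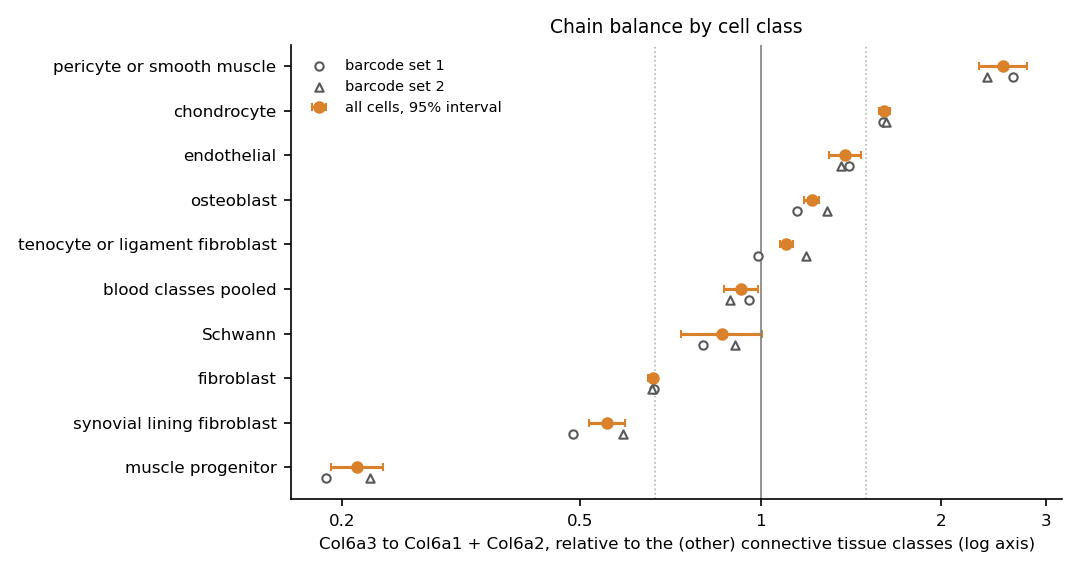
Chain balance of Col6a3 against Col6a1 and Col6a2 by class on a log axis, with the 95% counting interval for all cells and open symbols for the 2 barcode sets, and dotted lines at the thresholds for a call. Pericytes or smooth muscle lie at 2.54 and muscle progenitors at 0.212, on either side of 1.

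Pericytes and smooth muscle cells, which surround blood vessels, were the class in which Col6a3 exceeded Col6a1 and Col6a2 most. The 109 cells held 1000 UMIs of Col6a3. At a depth thinned to 2000 UMIs per cell, 65.0% of 103 cells had a UMI of Col6a3 (exact binomial interval 55.0–74.2%), beside 30.1% each for Col6a1 and Col6a2. In pooled blood cells, which should lack these genes, the thinned shares were 2.50%, 2.57% and 2.25%. Without thinning, at a median of 8391 UMIs, the pericyte shares were 85.3%, 54.1% and 56.0%, and those of blood cells, at a median of 5441 UMIs, 5.66%, 6.29% and 5.19%. The 8 fibroblast markers summed to 70.6 CPM in this class, with Ly6a at 0, beside 4365 CPM in fibroblasts and 216 CPM in blood cells. The 8 chondrocyte markers summed to 601 CPM, with 6 of them under 10 CPM, beside 59.7 CPM in blood cells. The 7 muscle progenitor markers, which include the pericyte marker Des, summed to 207 CPM beside 14.2 CPM. Synovial lining and Schwann markers, at 39.7 and 10.3 CPM, were below the 105 and 44.8 CPM of blood cells. The part of other cells' RNA in the chain levels was not tested.

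In the synovial lining, the Prg4-producing cells that face the joint cavity, Col6a3 was the low chain. Col6a1 stood at 647 CPM (564 and 688 CPM) and Col6a2 at 588 CPM (518 and 623 CPM), whereas Col6a3 stood at 317 CPM (249.8 and 351 CPM). The Col6a3 level in both sets lay below that of every other connective tissue class. It was 2.29-fold lower than in the other connective tissue classes together. The class has 157 cells. Its 8 pericyte markers summed to 1052 CPM, of which Rgs5 alone held 990.2 CPM, with 6 of the 8 under 10 CPM and Myh11 at 0. The 8 chondrocyte markers summed to 1947 CPM and the 8 fibroblast markers to 1339 CPM, and the part of other cells' RNA in the chain levels was not tested.

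Muscle progenitors, the Pax7, Myod1 and Myog cells that build and repair muscle, held another set of chains. Col6a1 was at 169 CPM (136 and 184 CPM), Col6a2 at 89.1 CPM (66.2 and 99.4 CPM) and Col6a6 at 65.7 CPM (53.3 and 71.4 CPM). Col6a3 was at 25.1 CPM (17.9 and 28.4 CPM), against 32.2 CPM in pooled blood cells (30.5–34.0). Relative to blood cells, muscle progenitors were 4.29-fold higher for Col6a1 (4.03–4.56), 2.46-fold higher for Col6a2 (2.29–2.65) and 8.24-fold higher for Col6a6 (7.28–9.36), and their Col6a3 was at a ratio of 0.779 (0.696–0.870). Col6a3 in this class was therefore below the pooled level of cells that should lack it, and its level lay inside the range of the 11 blood clusters, 5.63 to 157 CPM. For Col6a6 the blood clusters ran from 0.631 to 31.0 CPM, below the muscle progenitors in both sets. For Col6a1 and Col6a2 the highest blood cluster, at 182 and 187 CPM, was above the class, and the part of background in these chains was not tested. Among the UMIs of the α3-like chains Col6a3, Col6a4, Col6a5 and Col6a6, Col6a6 held 71.8% in muscle progenitors, 23.7% in fibroblasts and 0.570% in chondrocytes.

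The 3 clusters of the class differed. Cluster 9, led by Pax7, Fgfr4 and Calcr, genes of muscle stem cells, held 225 CPM of Col6a1, 107 CPM of Col6a2, 15.9 CPM of Col6a3 (7.35 and 19.8 CPM) and 101 CPM of Col6a6. Cluster 22, led by Hist1h1b, Myod1 and Hist1h2ae, held 200 CPM of Col6a1, 104 CPM of Col6a2, 19.7 CPM of Col6a3 and 85.0 CPM of Col6a6. The ratio of Col6a6 to Col6a3 was 6.34 (5.24–7.74) in cluster 9 and 4.30 (3.26–5.75) in cluster 22. Cluster 14, led by Myog, Actc1 and Gm28653 and thus by genes of differentiating muscle, held 78.0 CPM of Col6a1, 57.8 CPM of Col6a2, 40.2 CPM of Col6a3 and 9.40 CPM of Col6a6. From cluster 14 to cluster 9, Col6a6 was 10.7-fold higher (8.13–14.3, 19.6 in set 1 and 9.12 in set 2) and Col6a1 2.89-fold higher (2.61–3.21), and Col6a3 was at a ratio of 0.395 (0.314–0.493, 0.201 and 0.473), with cluster 9 under the pooled blood level.

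**Figure D4:**
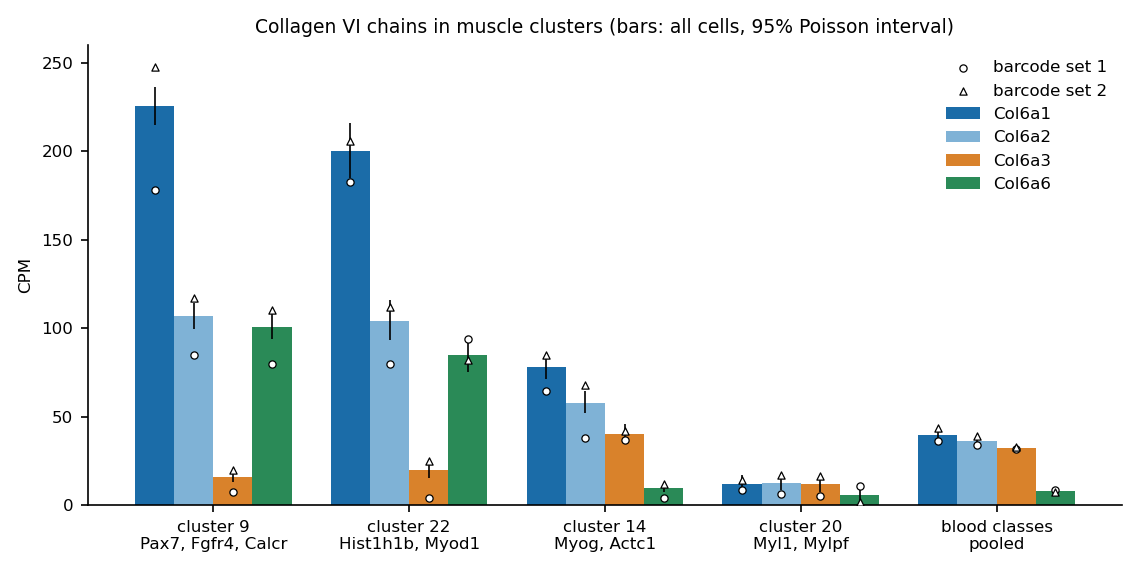
Levels of Col6a1, Col6a2, Col6a3 and Col6a6 in CPM in 4 muscle clusters and pooled blood cells, as bars from 0 with 95% Poisson intervals and open symbols for the 2 barcode sets. Col6a6 stands at 101 CPM in the Pax7 cluster 9 and at 9.40 CPM in the Myog cluster 14, and Col6a3 in cluster 9 lies below the blood level of 32.2 CPM.

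Detection of the chains together was then counted within cells. Without thinning, 441 muscle progenitors had a UMI of Col6a6. Of these, 391 (88.7%) also had Col6a1 and 48 (10.9%) had Col6a3, beside 61.1% and 6.91% of all 1274 muscle progenitors. In cluster 9 the shares were 89.4% beside 78.1% for Col6a1 and 8.41% beside 5.97% for Col6a3. In cluster 22 they were 90.8% beside 83.2% and 11.2% beside 9.19%. In cluster 14, with 22 Col6a6 cells, they were 68.2% beside 26.4% and 45.5% beside 7.34%. The part of cluster mix and cell depth in these shares was not tested. In fibroblasts, 2500 of 2581 cells with Col6a6 (96.9%) also had Col6a3, beside 95.6% of all fibroblasts. Thinned to 2000 UMIs, 9.81% of muscle progenitors had Col6a6 (8.23–11.6%), beside 0.833% of blood cells, and 2.06% had Col6a3, beside 2.50% of blood cells. The fibroblast markers summed to 210 CPM in muscle progenitors (249 CPM in cluster 9) and 216 CPM in blood cells. Single markers went both ways: Dpt stood at 61.1 CPM in the class, 83.0 CPM in cluster 9 and 96.6 CPM in cluster 22, above the 23.9 CPM of blood cells, whereas Pdgfra, at 7.77 CPM, and Lum, at 17.3 CPM, lay below the 10.3 and 27.2 CPM of blood cells. The part of fibroblast RNA in the class was not tested. The balance of the class moved from 0.212 to 0.523 when the doublet calls were kept and to 0.431 with another clustering seed. Under those settings the class took in more cells (1361 and 1335 in place of 1274), and its fibroblast markers stood at 548 and 454 CPM and its Col6a3 at 115 and 76.7 CPM. The balance was 0.169 without high doublet scores, 0.149 thinned and 0.146 with per-cell means. It was 0 once the blood level was subtracted, so the value of 0.212 rests on Col6a3 at background level.

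Mature muscle gave 2 unlike clusters. Cluster 20, led by Myl1, Mylpf and Tnnc2, contractile genes, held 11.7 CPM of Col6a1, 12.6 CPM of Col6a2, 11.7 CPM of Col6a3 and 5.40 CPM of Col6a6, all below the pooled blood level. Cluster 32, of 34 cells led by Myl2, Gm13075 and Tnnc1, held 1133 CPM of Col6a1, 952 CPM of Col6a2, 759 CPM of Col6a3 and 295 CPM of Col6a6. Its fibroblast markers stood at 3565 CPM, near the 4365 CPM of fibroblasts, and were at 41.8 CPM in cluster 20. The part of fibroblast RNA in cluster 32 was not tested.

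Schwann cells, the glia of peripheral nerve, had more Col6a1 than Col6a2 in both sets. Col6a1 was at 308 CPM (311 and 307 CPM), Col6a2 at 152 CPM (152 and 151 CPM) and Col6a3 at 182 CPM (175 and 187 CPM). The ratio of Col6a1 to Col6a2 was 2.03 (1.70–2.44), beside 1.16 in the pooled connective tissue classes. Fibroblast markers summed to 719 CPM in this class of 100 cells, above the 216 CPM of blood cells, and their part was not tested. Endothelial cells held 208 CPM of Col6a1, 188 CPM of Col6a2 and 252 CPM of Col6a3, with fibroblast markers at 679 CPM and Rgs5 at 1030.5 CPM, and the part of other cells' RNA was not tested there either.

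Col6a6, encoding α6, was mostly a fibroblast transcript. It was at 195 CPM in fibroblasts (164 and 223 CPM), 65.7 CPM in muscle progenitors and 24.1 CPM in tenocytes (20.9 and 26.1 CPM), and both sets of fibroblasts were above both sets of every other class. Chondrocytes held 4.88 CPM (3.33 and 6.82 CPM), the least of the 17 classes over all cells and below the 7.97 CPM of pooled blood cells. By set the order was not kept: monocytes or dendritic cells were at 0 and the synovial lining at 2.70 CPM in set 1. Of all Col6a6 UMIs in kept cells, 77.1% were in the fibroblast class, beside 45.1% of Col6a1 and 38.0% of Col6a3. Thinned, 30.3% of fibroblasts had a UMI of Col6a6 (28.7–31.8%), and 76.9% did without thinning.

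Col6a5, encoding α5, was rare. Kept cells held 620 UMIs of it, 505 of them in fibroblasts, at 8.28 CPM (11.3 and 5.59 CPM). Among the named classes, pericytes or smooth muscle followed at 5.55 CPM, which rests on 7 UMIs. The remaining connective tissue classes were at or below 0.599 CPM. Of the unnamed clusters, cluster 23 (180 cells) held 19 Col6a5 UMIs and cluster 6 (751 cells) held 23. No Col6a5 UMI was found in the synovial lining, where 3 UMIs would be 0.903 CPM. Of the 169 fibroblasts with a Col6a5 UMI, 153 (90.5%) also had Col6a6, beside 76.9% of all fibroblasts, both without thinning. In fibroblast clusters 1, 2 and 3 these shares were 92.5% beside 83.7%, 87.1% beside 70.5% and 88.9% beside 74.6%. The part of cluster mix and cell depth in them was not tested. Col6a4, the neighbour of Col6a5, reached 52 UMIs in all kept cells and at most 0.816 CPM in any class.

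Within fibroblasts the 3 clusters kept nearly the same split of Col6a1, Col6a2 and Col6a3 but not the same amount of the rare chains. The share of Col6a3 among the 3 main chains was 28.2% in cluster 1 (led by Abca8a, Ebf2 and Cd248), 27.3% in cluster 2 (Ugdh, Pcdh7 and Gfpt2) and 26.3% in cluster 3 (Cxcl5, Csf2 and Saa3). Col6a6 was at 299.5 CPM, 168 CPM and 116 CPM in that order. From cluster 3 to cluster 1, Col6a1 was 1.48-fold, Col6a2 1.58-fold and Col6a3 1.68-fold higher, whereas Col6a6 was 2.58-fold (2.74 and 2.33 in the sets) and Col6a5 4.88-fold (6.64 and 4.00) higher. Cluster 1 alone held 59.7% of all Col6a5 UMIs. Cluster 1 against cluster 2 gave a Col6a5 ratio of 4.56 that rested largely on set 1, with 13.1 there and 1.90 in set 2.

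Unnamed cluster 6, led by S100a4, Thbs4 and Anxa8, was rich in the 3 main chains and held less Col6a6 than the 3 fibroblast clusters. It held 1122 CPM of Col6a1 (977 and 1307 CPM), 1012 CPM of Col6a2, 900.0 CPM of Col6a3 and 68.4 CPM of Col6a6, with a balance of 0.918 and fibroblast markers at 2576 CPM. Unnamed cluster 23, led by Dnah12, Wdr95 and 6030407O03Rik, held 1033 CPM of Col6a1 and 733 CPM of Col6a2, a ratio of 1.41 (1.32 in set 1 and 1.51 in set 2), above the tenocytes' 1.21. It also held 267 UMIs of Col6a6 and 19 of Col6a5, beside 2332 of Col6a1. Its fibroblast markers stood at 3743 CPM.

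**Figure D5:**
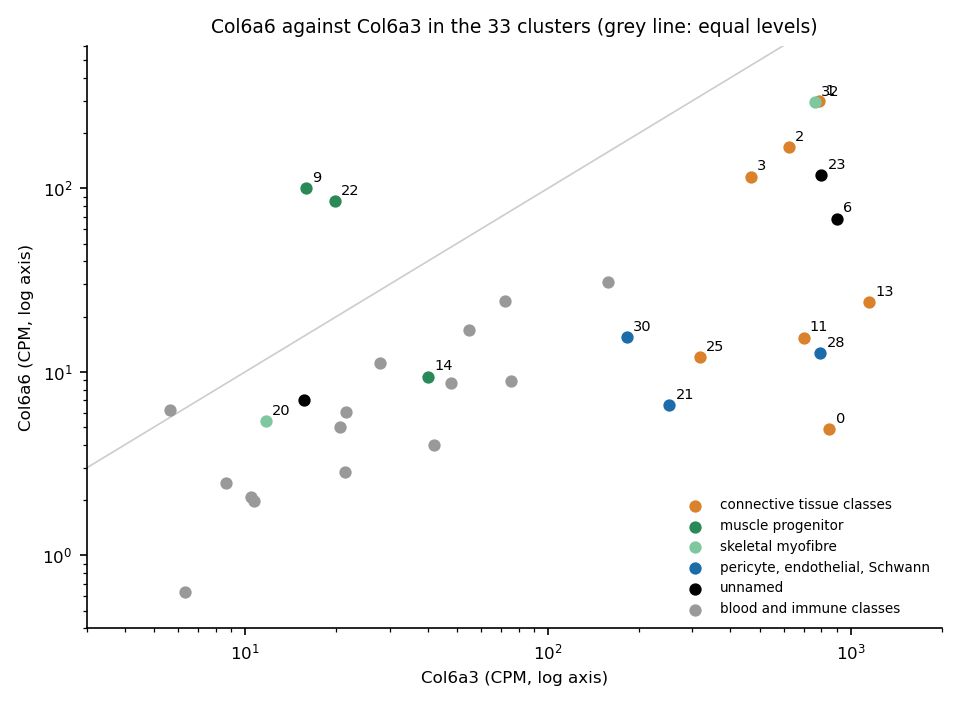
Col6a6 against Col6a3 in CPM for the clusters, both axes logarithmic, with clusters coloured by kind and the line of equal levels. The muscle clusters 9 and 22 lie well above the line (1 neutrophil cluster of low levels lies just above it), at Col6a6 to Col6a3 ratios of 6.34 and 4.30, and the chondrocyte cluster lies farthest below it among connective tissue clusters, at 0.00574.

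Each connective tissue class was then set against the other 4, over the 14249 genes tested. A gene was called when it had at least 100 UMIs over both sides together, the ratio was at least 2 or at most 0.5, its interval did not hold 1 and both sets moved alike. In fibroblasts, 2 of the 5 chains were called higher (background 9.68% of genes) and 0 lower (13.2%). In chondrocytes 0 were called higher (10.0%) and 2 lower (20.0%), in osteoblasts 0 higher (7.37%) and 2 lower (9.87%), in tenocytes 0 higher (5.61%) and 2 lower (12.9%), and in the synovial lining 0 higher (10.8%) and 3 lower (16.8%). Of these 11 calls, 10 were of Col6a5 or Col6a6 and 1 was of Col6a3 in the synovial lining. Col6a5 reached 100 UMIs only through fibroblasts, which held 505 of its 523 UMIs in the 5 classes. Its 4 lower calls thus restate the fibroblast call and are not separate results. Col6a6 was 8.05-fold lower in osteoblasts and 4.94-fold lower in tenocytes than in the other 4 classes pooled, and Col6a5 10.5-fold and 8.40-fold lower. For Col6a6 that pool is mostly fibroblasts, which held 11878 of the 12434 Col6a6 UMIs in the 5 classes. Tenocytes, at 24.1 CPM, were above osteoblasts (15.3 CPM), the synovial lining and chondrocytes for Col6a6 in both sets. The lower Col6a6 call of tenocytes thus reflects the fibroblast level and not a lower level than in those classes. The Col6a5 values rest on 6 and 5 UMIs, and the osteoblast value has an interval of 4.81–28.8 and was 17.0 in set 1 and 5.70 in set 2. Tenocytes were higher by ratios of 1.57 for Col6a1, 1.51 for Col6a2 and 1.70 for Col6a3, under the 2-fold threshold. The median log2 ratio of the chains was 0.59 in tenocytes and −0.79 in the synovial lining, beside −0.07 and 0.06 over all genes. Genes with 0 UMIs in a class have no log2 ratio and were left out of these medians. The synovial lining value therefore leaves out Col6a5, its lowest chain by ratio. With cells thinned to 2000 UMIs, the 5 Col6a5 calls were lost and 6 remained.

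The 38 partner genes, listed as 9 receptors, 16 matrix partners and 13 folding and processing genes, were compared in the same way. Chondrocytes had 7 called higher and 15 lower (10.0% and 20.0% of all genes), led by Matn1 (567-fold, 4224 in set 1 and 309 in set 2) and Matn3 (123-fold), matrilins that link collagen VI to other cartilage matrix, and by Itga3 (78.6-fold), an integrin subunit, with Tnxb at 0.0369, Col4a1 at 0.0800 and Mmp11 at 0.0966 the lowest. Fibroblasts had 8 higher and 11 lower (9.68% and 13.2% of all genes). Tnxb, the gene of tenascin-X, was 12.2-fold higher there, Col4a1, a basement membrane chain, 4.46-fold and Antxr2, a receptor that binds collagen VI, 2.97-fold. Osteoblasts had 3 higher, Col12a1 (4.80-fold), Itga11 (3.78-fold) and Matn4 (2.65-fold), and 11 lower (7.37% and 9.87% of all genes). Col12a1 was 5.47-fold higher in set 1 and 5.97-fold in set 2, so the value over all cells lies outside both. Matn1, Matn3 and Itga3 were the lowest called partners of fibroblasts and tenocytes, and Matn1, Tnxb and Matn3 those of osteoblasts. The Matn4 call turned to the lower side under 3 other settings, down to 0.379, in which the osteoblast class held 312 to 323 cells in place of 544.

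Tenocytes had 7 partners higher and 7 lower (5.61% and 12.9% of all genes), with Col12a1 3.89-fold, Itga2, a collagen-binding integrin subunit, 3.61-fold and Tgfbi 3.23-fold higher. Col12a1, whose level differs between the sets, was 2.46-fold higher in set 1 and 3.51-fold in set 2, both under the value over all cells. Itga2 was 2.58-fold and 4.68-fold higher and Tgfbi 3.34-fold and 3.09-fold, so the order of the 3 differed between the sets. The synovial lining had 7 higher and 16 lower (10.8% and 16.8% of all genes). Of its receptors, 0 of 9 were higher and 6 lower, with Itga2 at 0.0692, which rests on 8 UMIs (0.178 in set 1, 0.0132 in set 2). Colgalt2, which adds galactose to collagen hydroxylysine, was 8.84-fold higher there (13.7 and 6.47), Vwa1, which binds perlecan, 8.81-fold and Matn4 6.54-fold, and Col14a1 and Col12a1 were the lowest of its matrix partners, at 0.0598 (0.0116 and 0.0744) and 0.0891 (0.196 and 0.0607). The receptors, matrix partners and folding genes stood at median log2 ratios of −1.22, −0.59 and −0.10 in the synovial lining, and at 0.49, −0.08 and 0.11 in tenocytes.

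Over the 33 clusters, Col6a1 and Col6a2 had a Pearson r of 0.992 between their log2(CPM + 10) values, Col6a1 and Col6a3 of 0.936, Col6a3 and Col6a6 of 0.571, and Col6a5 and Col6a6 of 0.764. These are descriptions over clusters that share libraries. Among 13010 genes, those most like the summed 3 main chains were Crtap (0.980), Bgn (0.978), Rcn3 (0.977), Fkbp9 (0.975) and Col5a2 (0.974). Those most like Col6a6 were Tmeff2 (0.940), Hmcn2 (0.928), Dpt (0.912), Gpc3 (0.903) and AW551984 (0.903), and those most like Col6a5 were Ms4a4d (0.912), Unc13c (0.904), Lgi2 (0.904), Kcp (0.891) and Hsd11b2 (0.885).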

How the data were processed

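The deposited matrix holds UMI counts per gene and barcode, made by the authors with Cell Ranger 7.0.0 and genome build mm10, per the submitters' processing notes. Intron handling was not given in the sources used here. In all, 24203 barcodes were deposited, with 130738385 UMIs in set 1 and 126880907 in set 2. The labels describe 2 experiments, with 1 and 2 libraries of each genotype, give 1 sample for each genotype, and do not say what the barcode endings stand for. Replicate numbers were given in accession order only.

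Barcodes below 500 genes or 1000 UMIs, or above 10% mitochondrial UMIs, were removed. Scrublet called 3 of 7160 and 1 of 8014 cells, which were removed. Clustering used scanpy 1.11.5 with leidenalg 0.10.2, 2000 variable genes, 30 components and resolution 1, without collagens and partner genes. A class name needed 3 detected markers.

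UMIs were summed per class and per barcode set and divided by the total to give CPM. Intervals were exact at the 95% level (scipy 1.17.1), except those of the chain balance, which are approximate on the log scale. A ratio was called at 2-fold and a chain balance at 1.5-fold, both without a test, since there is 1 pooled matrix. The code was tested on simulated data. The alternatives were other cell filters, clusterings, a thinned depth, per-cell means, subtraction of the blood level either set left out and, chosen after seeing the data, a doublet score limit and an earlier naming rule.

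The members and lists were chosen with earlier results of these data known. Named partners are the 3 largest and 3 smallest called ratios of a class, and genes of like pattern are the 5 with the highest r among those with at least 500 UMIs. Protein sequences were not used here.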

Additional observations from a re-analysis of the deposited data

Results flagged for a closer look

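Barcodes that were removed by the cell filters and the doublet calls, and so entered no comparison, still held collagen VI transcripts. Across these 9033 barcodes, Col6a1, Col6a2 and Col6a3 together stood at 129 CPM, from 5386 UMIs of 41762104, with an interval of 126–132 CPM. A count of 3 UMIs would be 0.0718 CPM there. The pooled blood cells, for comparison, stood at 108 CPM for the same 3 chains.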

How the results depend on the processing

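No paired analysis was possible because the labels give 1 sample for each genotype and tie no barcode to a sample. The summed level of Col6a1, Col6a2 and Col6a3 in the 5 connective tissue classes was 2267 CPM. It was 2414 CPM with at least 200 genes and 500 UMIs, 2295 CPM with at least 1000 genes and 2000 UMIs and 2391 CPM with at most 5% mitochondrial UMIs. It was 2317 CPM with the doublet calls kept, 2354 CPM at resolution 0.5, 2411 CPM at resolution 2, 2346 CPM with another seed and 2400.2 CPM without cells of a doublet score over 0.25, a setting chosen after seeing the data. Thinning gave 2185 CPM, per-cell means 2158 CPM, subtraction of the blood level 2159 CPM, leaving out set 1 2457 CPM and leaving out set 2 2076 CPM. The cause of these moves was not tested. The count of called chains was 11 in all settings but thinning, which gave 6, since fewer UMIs remain. The partner calls ranged from 82 to 97 beside 92. Matn4 in osteoblasts turned to 0.534 at resolution 0.5, 0.379 at resolution 2 and 0.565 with collagens used for clustering. The osteoblast class held 322, 312 and 323 cells in those settings, in place of 544. Itga10 in tenocytes, 2.17 as reported, turned to 0.825 at resolution 2 and 0.942 without high doublet scores. There the tenocyte class held 1399 and 1170 cells in place of 500. Its fibroblast markers stood at 1543 and 1739 CPM in place of 609 CPM. The part of these class changes in the reversals was not tested. Of single chain ratios, 369 kept their direction and call and 5, all of Col6a5 under thinning, lost it. Depth limits Col6a5, which has 620 UMIs in kept cells.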
